A study of Drosophila melanogaster with 27 samples.

Results

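The endoplasmic reticulum (ER) stress response was followed in the heads of female Drosophila melanogaster through 10 genes that encode its sensors, its transcription factors and the main ER chaperones. The genes were taken by symbol from a table of 11923 genes, and all 10 were found in it. They are Hsc70-3, Gp93, Pdi, Calr, Cnx99A, Ire1, PEK, Atf6, Xbp1 and crc. The table holds 6 libraries of polyadenylated RNA from the wild-type strain Oregon-R, with 20 heads pooled per sample. There were 3 libraries of flies aged 50 days and 3 of flies aged 3 days. Both ages were kept at 25 °C on the food that the labels call CD, with no transgene and no drug named. The labels describe the replicates as biological, and the other 21 samples of the series were not analysed here.

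Proteins that enter the secretory pathway fold in the ER with the help of chaperones, disulfide isomerases and lectins that hold immature glycoproteins. When unfolded proteins build up, membrane sensors start the unfolded protein response, which raises folding capacity, slows translation and sends misfolded proteins to degradation. In the fly head the pathway is known from photoreceptors, which make large amounts of rhodopsin, and from the fat body, which secretes yolk and storage proteins. Ire1 acts by splicing the Xbp1 mRNA, PEK by phosphorylating a translation initiation factor, and Atf6 by being cut free of the membrane. A table with 1 value per gene shows none of these steps, so what follows concerns transcript levels alone.

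Levels are given as deposited and are read as FPKM, fragments scaled to gene length and library size, a scale on which genes of different length can be compared. The table states no sequencing depth, so precision can be judged only from the spread of 3 replicates per age. Summed values ran from 504504 to 539645 FPKM in the 50-day libraries and from 427992 to 502587 FPKM in the 3-day libraries. Differences were tested with limma on log2(value + 1), after scaling by a trimmed-mean factor per library, which centres the bulk of the genes. A gene is said to have risen or fallen where its p, adjusted by Benjamini-Hochberg over 8742 genes averaging 1 FPKM or more, was under 0.05. All 10 genes passed this filter on level. Of all genes tested, 39.1% passed in either direction, 18.3% higher and 20.8% lower at 50 days, so a called difference is common in this comparison.

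In heads of 50-day flies, 5 of the 10 genes rose, 0 fell and 5 did not pass the test, against a background of 18.3% of genes called higher. The scaled values of 6 of the 10 separated the ages completely, all higher at 50 days, as did those of 26.0% of all genes tested, with 28.3% lower. Those that rose were the chaperone Hsc70-3, the disulfide isomerase Pdi, the lectin Calr and the transcription factors Xbp1 and crc. Their ratios of scaled means, 50-day over 3-day, were between 1.31 and 1.85. The transcripts of the 3 sensors, of the membrane lectin Cnx99A and of the chaperone Gp93 did not pass. Of 9 fat body marker genes, 6 rose in the same libraries, while the photoreceptor, neuronal, glial, muscle and hemocyte markers held more falls than rises. Over all genes tested 20.8% were called lower. The hemocyte falls were Col4a1 and vkg, while Hml, NimC1, Sr-CI and eater had estimates above 0 and were not called. The part of cell types in the changes of the 10 genes was not tested. The median log2 change of the 10 genes was 0.38, beside -0.0011 over all genes tested, and 7 of the 10 changes lay above the 75th percentile of all changes, which was 0.23. The median of the 10 genes was 0.099 with libraries set to the same sum, where that of all genes was -0.26. The count of 5 depended on how libraries were scaled. It was 4 with the deposited values unscaled, where 1138 of 8742 genes were called higher. It was 2 with libraries set to the same sum without the 10 most abundant genes, where 910 of 8745 were. With libraries set to the same sum it was 1, near the share over all genes, of which 734 of 8755 were called higher.

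**Figure D1:**
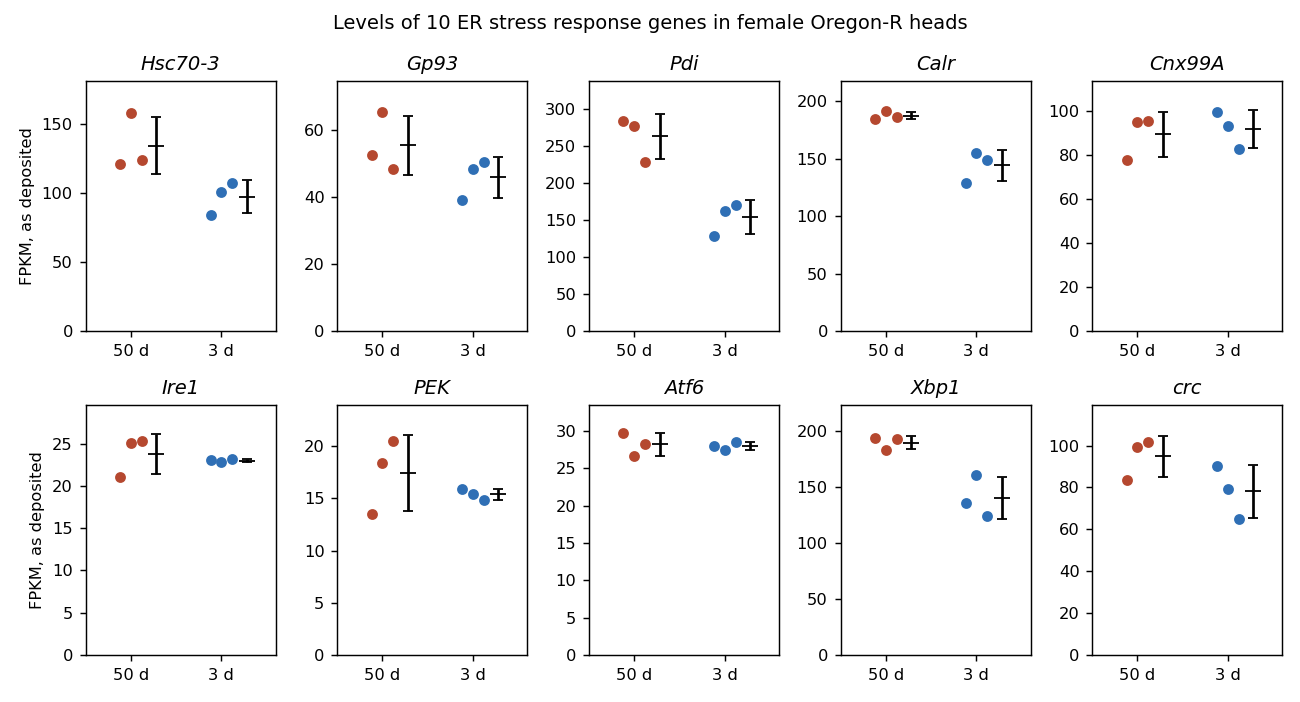
FPKM values (vertical axes, from 0) of the 10 genes in the 3 libraries of 50-day heads (left, red) and the 3 of 3-day heads (right, blue), with the mean and SD as black bars. In Hsc70-3, Pdi, Calr and Xbp1 every 50-day point lies above every 3-day point, while the points of the other genes overlap between the ages.

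Pdi, which encodes protein disulfide isomerase, the enzyme that forms and rearranges disulfide bonds of secreted proteins, showed the largest change of the 10. It had 284, 278 and 229 FPKM in the 50-day replicates numbered 1, 2 and 3, against 129, 163 and 171 FPKM in the 3-day ones in the same order. The ages did not overlap, and the ratio of scaled means was 1.85. Its limma estimate was a log2 change of 0.88 (SE 0.15, adjusted p 0.00302). Pdi kept its call in all 14 alternative fits, with changes between 0.60 and 1.01, and was the only one of the 10 genes to do so.

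Hsc70-3 is the fly counterpart of BiP, the Hsp70 chaperone of the ER lumen that also holds the sensors inactive. Its values were 122, 158 and 124 FPKM at 50 days and 84.4, 101 and 107 FPKM at 3 days. Every 50-day library exceeded every 3-day library, and 50-day replicate 2 was the highest of all. In limma it changed by 0.56 on the log2 scale (SE 0.13, adjusted p 0.00979), and the call held in 13 of 14 alternative fits. It was lost with libraries set to the same sum (0.28, adjusted p 0.117, the highest of the alternatives, whose lowest was 0.00921).

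Gp93 encodes the ER member of the Hsp90 family. It had 52.4, 65.2 and 48.3 FPKM at 50 days, against 38.9, 48.4 and 50.2 FPKM at 3 days. The ages overlapped, with 50-day replicate 3 among the 3-day values. The log2 change was 0.37 (95% interval 0.056 to 0.68) and did not pass (limma adjusted p 0.0626, before adjustment 0.0265). Without 50-day replicate 3 it passed, with a change of 0.49 (adjusted p 0.0283). Of 14 alternative fits this was the only one with a call, and adjusted p over them ran between 0.0283 and 0.628.

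Of the lectin chaperones, 1 passed the test and the other did not. Calr encodes calreticulin, a soluble calcium-binding lectin of the ER lumen, and Cnx99A encodes a calnexin, its membrane-bound relative, which photoreceptors need for rhodopsin maturation. Calr had 185, 191 and 186 FPKM at 50 days and 129, 155 and 149 FPKM at 3 days, with no overlap (log2 change 0.49, SE 0.099, limma adjusted p 0.00621). Its call was lost in both fits that set libraries to a common sum, at 0.20 (adjusted p 0.186) over all genes and 0.29 (0.0517) without the 10 most abundant, while the 14 alternatives gave 0.00548 to 0.186. Cnx99A had 77.7, 94.9 and 95.7 FPKM at 50 days and 99.5, 93.3 and 82.6 FPKM at 3 days. These values overlapped, and the log2 change was 0.068 (95% interval -0.16 to 0.30, limma adjusted p 0.620). The change of Cnx99A was below 0 under all 3 other scalings and without 3-day replicate 3.

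Summed over the soluble chaperones Hsc70-3, Gp93, Pdi and Calr, the deposited levels were 643, 692 and 588 FPKM in 50-day libraries and 381, 467 and 478 FPKM in 3-day libraries. The ages did not overlap in this sum, to which Pdi contributed most on average. Summed over the sensors Ire1, PEK and Atf6, the deposited levels were 64.2, 70.0 and 74.0 FPKM at 50 days and 66.9, 65.7 and 66.5 FPKM at 3 days, with overlap. This overlap depended on the scale. With the trimmed-mean factors the sensor sums separated, at 70.7 or more at 50 days and 65.01 or less at 3 days. The scaled sums of the soluble chaperones separated as well. Of single genes tested, 54.3% separated in either direction after scaling.

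Ire1 encodes a kinase and endonuclease that is conserved from yeast to humans as a sensor of the pathway. It had 21.0, 25.03 and 25.3 FPKM at 50 days, against 23.0, 22.8 and 23.1 FPKM at 3 days. The deposited values overlapped, and the scaled ones just separated, at 23.2 or more at 50 days and 22.4 or less at 3 days. Such separation in either direction was found for 54.3% of all genes tested. The log2 change of 0.15 (95% interval -0.022 to 0.31) was not called (limma adjusted p 0.148), and it was -0.13 with libraries set to the same sum and -0.048 with the 10 most abundant genes left out of that sum.

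PEK, the fly counterpart of PERK, encodes the kinase that slows translation by phosphorylating eIF2alpha. Its values of 13.5, 18.4 and 20.5 FPKM at 50 days spanned those at 3 days, which were 15.9, 15.5 and 14.8 FPKM. The log2 change was 0.25 (95% interval -0.011 to 0.52, limma adjusted p 0.115). The low value was 50-day replicate 1, and without that library PEK passed, with a change of 0.38 (adjusted p 0.0180, while the 14 alternatives gave 0.0180 to 0.946). With libraries set to the same sum its change was -0.016.

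Atf6 encodes a transcription factor that is held in the ER membrane until it is cut. It had 29.8, 26.6 and 28.3 FPKM at 50 days, and 27.96, 27.4 and 28.5 FPKM at 3 days, fully overlapping. The log2 change was 0.12 (95% interval -0.095 to 0.33, limma adjusted p 0.349). It was -0.16 with libraries set to the same sum and -0.081 with the 10 most abundant genes left out of it.

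Downstream of the sensors, Xbp1 encodes the transcription factor whose mRNA Ire1 splices. It had 193, 183 and 193 FPKM at 50 days and 136, 161 and 124 FPKM at 3 days, with no overlap and a ratio of scaled means of 1.46. limma gave a log2 change of 0.55 (SE 0.12, adjusted p 0.00727), a call lost in the fits with a common sum, at 0.26 (adjusted p 0.141) over all genes and 0.35 (0.0522) without the 10 most abundant. Over 14 alternatives the adjusted p of Xbp1 ran from 0.00694 to 0.141. The table does not tell spliced from unspliced Xbp1 mRNA.

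The gene crc (cryptocephal) encodes the fly counterpart of ATF4, which PEK activity brings to translation. It had 83.6, 99.2 and 102 FPKM at 50 days and 90.2, 79.3 and 64.8 FPKM at 3 days. The deposited values overlapped, since 3-day replicate 1 was above 50-day replicate 1; after scaling the ages separated narrowly. The log2 change of 0.39 (SE 0.13, limma adjusted p 0.0395) held in only 4 of 14 alternative fits, whose adjusted p ran between 0.0140 and 0.616. The call was lost without 3-day replicate 2 (0.0926) or 3 (0.0691) and without 50-day replicate 1 (0.0596), 2 (0.105) or 3 (0.104), and it held in the fewest alternatives of the 5. Most exon bases of crc are shared with another annotated gene, CG46314, so its value may hold reads of both.

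**Figure D2:**
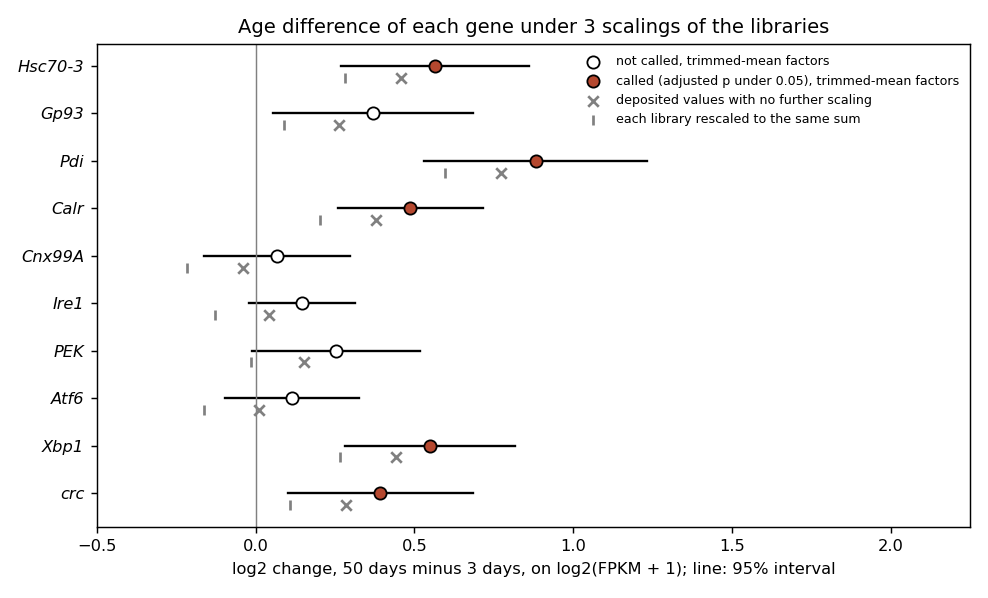
Log2 change, 50 days minus 3 days, of the 10 genes (horizontal axis) with its 95% interval, filled where the limma adjusted p is under 0.05; grey crosses are the changes with deposited values unscaled and grey bars those with libraries set to the same sum. Pdi lies between 0.60 and 0.88 under the scalings shown, whereas Cnx99A, Ire1, PEK and Atf6 lie above 0 with the trimmed-mean factors and below 0 with the same sum.

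The order of the levels was much the same at both ages. In 50-day libraries Pdi was highest at 264 ± 30.1 FPKM (SD, n = 3 here and below), followed by Xbp1 at 190 ± 6.08 and Calr at 187 ± 3.21 FPKM, whose ranges overlapped. Hsc70-3 came next at 135 ± 20.5 FPKM, then crc at 94.8 ± 9.86 and Cnx99A at 89.4 ± 10.2 FPKM, which overlapped. Gp93 followed at 55.3 ± 8.81 FPKM and the sensors were lowest, with Atf6 at 28.2 ± 1.58, Ire1 at 23.8 ± 2.40 and PEK at 17.4 ± 3.60 FPKM, each range above the next. In 3-day libraries Pdi (154 ± 22.5), Calr (144 ± 13.6) and Xbp1 (140 ± 18.7 FPKM) overlapped in turn. Hsc70-3 (97.6 ± 11.8), Cnx99A (91.8 ± 8.55) and crc (78.1 ± 12.8 FPKM) did so as well. Gp93 (45.8 ± 6.06), Atf6 (27.98 ± 0.548), Ire1 (23.0 ± 0.179) and PEK (15.4 ± 0.544 FPKM) again formed the low end without overlap.

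Ratios of gene pairs within a library do not depend on how libraries are scaled against each other, and 8 such ratios were set beside the tests, chosen after the levels had been seen. With 3 against 3 libraries the smallest two-sided p of an exact permutation test is 0.1, so no ratio could pass 0.05. Hsc70-3 over Hsc70-4, its constitutive relative of the cytosol, was 0.198, 0.232 and 0.167 at 50 days and 0.149, 0.146 and 0.145 at 3 days. Over the mitochondrial relative Hsc70-5 it was 1.82, 2.39 and 1.82 at 50 days and 1.18, 1.27 and 1.41 at 3 days. In both ratios the ages did not overlap (exact permutation p 0.1 each, 0.133 after adjustment over the 8 ratios).

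Among the Hsp90 genes, Gp93 over its cytosolic relative Hsp83 was 0.254, 0.272 and 0.183 at 50 days, against 0.118, 0.0922 and 0.0866 at 3 days, with no overlap (exact permutation p 0.1). This ratio holds a fall of Hsp83 as well as the values of Gp93. Gp93 over the mitochondrial relative Trap1 was 1.90, 2.13 and 1.499 at 50 days and 1.40, 1.49 and 1.56 at 3 days, with overlap (exact permutation p 0.2).

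Within the ER set, Calr over Cnx99A was 2.38, 2.01 and 1.95 at 50 days and 1.296, 1.66 and 1.81 at 3 days. Pdi over Cnx99A was 3.66, 2.93 and 2.39 at 50 days and 1.29, 1.75 and 2.07 at 3 days. Both ratios separated the ages (exact permutation p 0.1 each), whatever the scaling of whole libraries. These pairs were chosen with the levels known, and their shared denominator, Cnx99A, had the smallest log2 change of the ER set (0.068). Separation of such pairs therefore adds little to the changes of Calr and Pdi themselves. How often other gene pairs separate was not tested, while 54.3% of single genes tested did so in either direction after scaling. Xbp1 over Ire1, the substrate over its splicing enzyme, also separated, with 9.21, 7.29 and 7.63 at 50 days and 5.91, 7.05 and 5.35 at 3 days. The ratio of crc to PEK overlapped, averaging 5.52 ± 0.627 in 50-day and 5.06 ± 0.654 in 3-day libraries (SD, n = 3 each, exact permutation p 0.5).

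**Figure D3:**
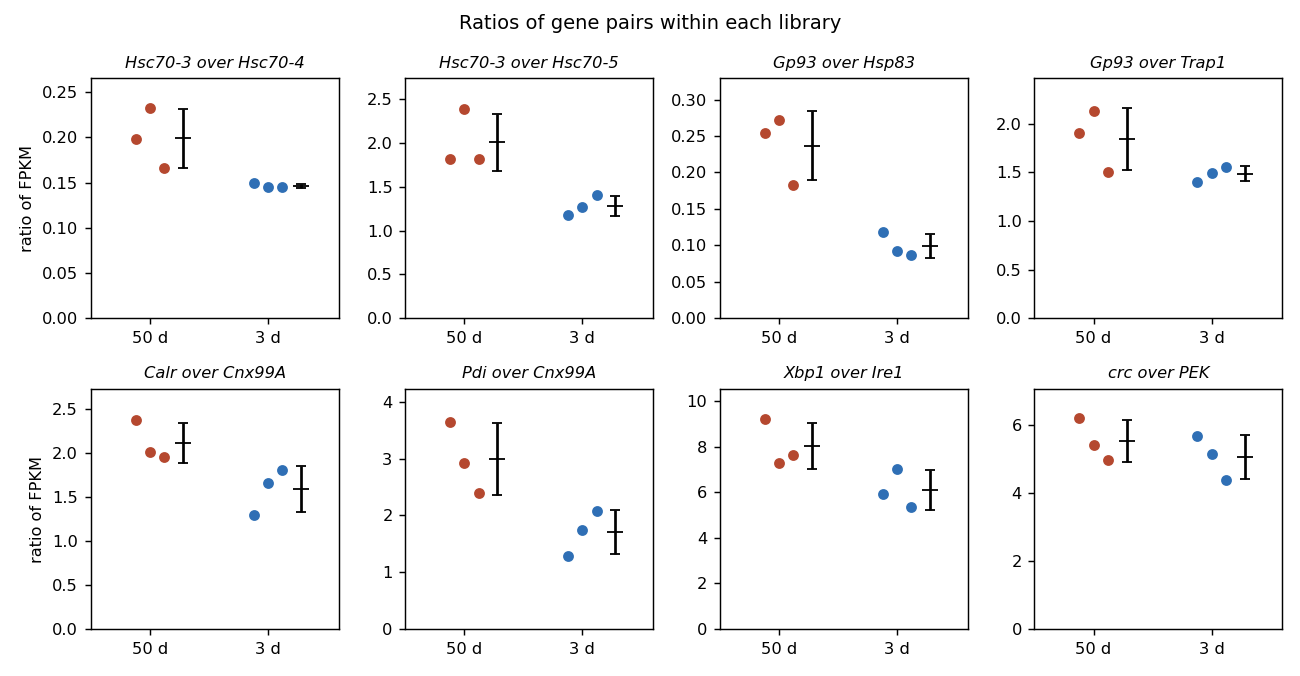
Ratio of FPKM values (vertical axes, from 0) of 8 gene pairs in each 50-day library (left, red) and each 3-day library (right, blue), with the mean and SD as black bars. The ages separate for all pairs except Gp93 over Trap1 and crc over PEK.

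Genes that work beside the 10 were read from lists written by known role. Among 11 tested ER chaperones and glycoprotein folding helpers, 5 rose, 0 fell and 6 did not pass, beside 18.3% of all genes called higher. The median log2 change of these 11 was 0.27. Fkbp14, a prolyl isomerase of the ER, had 60.8 ± 5.55 FPKM at 50 days and 35.9 ± 7.02 FPKM at 3 days (SD, n = 3 each, limma log2 change 0.87, adjusted p 0.00284). The BiP cofactors P58IPK (log2 change 0.57, adjusted p 0.0116) and CG2918 (0.55, adjusted p 0.00477), which RefSeq names Grp170, rose by amounts close to that of Hsc70-3. The DnaJ gene shv (0.49, adjusted p 0.0115) rose as well, and the remaining riser was Manf, a secreted ER stress factor that was named after its values were seen (0.40, adjusted p 0.0241). ninaA, the isomerase of rhodopsin folding, had 130, 179 and 194 FPKM at 50 days and 141, 136 and 166 FPKM at 3 days, with overlap (0.27, adjusted p 0.157). With libraries set to the same sum the median of this list was -0.012, with 1 gene called higher and 1 lower. The median of all genes was -0.26 under that scaling, with 734 of 8755 called higher and 3125 lower.

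Of 9 genes of oxidative folding 6 rose and 0 fell, beside 18.3% of all genes called higher, with a median log2 change of 0.40. The median was 0.15 with libraries set to the same sum and 0.22 with the 10 most abundant genes left out of it. The medians of all genes were then -0.26 and -0.18. Jafrac2, a peroxiredoxin of the secretory pathway, had the largest change in this list, with 12.6, 14.3 and 13.1 FPKM at 50 days and 5.71, 7.16 and 7.996 FPKM at 3 days, without overlap. limma put its log2 change at 0.96 (SE 0.11, adjusted p 0.000570). The Pdi relatives ERp60 (0.62, adjusted p 0.00145) and CaBP1 (0.59, adjusted p 0.0142) rose too, as did the sulfhydryl oxidase gene CG4670, known in RefSeq as Qsox1 (0.52, adjusted p 0.00121). The count of 6 became 2 with libraries set to the same sum, 3 with the 10 most abundant genes left out of that sum, and 4 with deposited values unscaled or with either the second or the third 50-day library left out.

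Genes of ER-associated degradation, which removes misfolded proteins, showed no such majority. Of 15 tested, 1 rose, 2 fell and 12 did not pass, beside 18.3% of all genes called higher and 20.8% lower. The median log2 change of this list was 0.10. With libraries set to the same sum the median was -0.18, beside -0.26 over all genes. With the 10 most abundant genes left out it was -0.094, beside -0.18 over all genes. Without 3-day replicate 3, 4 genes of this list rose. Ubc7, an E2 enzyme, was higher by 0.25 (limma adjusted p 0.0343), a call lost under 9 of 14 alternatives and an estimate of -0.026 with libraries set to the same sum. CG1317, which RefSeq also lists as Teb4, an ER membrane ubiquitin ligase, had 40.5 ± 4.15 FPKM at 50 days and 55.1 ± 3.02 FPKM at 3 days (SD, n = 3 each, log2 change -0.33, adjusted p 0.0155); without 3-day replicate 1 its adjusted p was 0.0590. Ubc6 fell by 0.46 on the log2 scale (adjusted p 0.00434). In the fly this symbol belongs to a Rad6-type enzyme known from DNA damage tolerance, not to an ER membrane enzyme. The ligase gene sip3, the counterpart of Hrd1, had 31.6 FPKM at 50 days and 31.3 FPKM at 3 days on average and was not called (0.12, adjusted p 0.315).

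Around the PEK and crc branch 11 genes were tested, of which 5 rose, 1 fell and 5 did not pass. Over all genes tested 18.3% were called higher and 20.8% lower. Under each alternative at least 5 of the 11 were called higher. The number called lower was 2 with deposited values unscaled, with no filter on low values or with the 10 most abundant genes left out of a common sum, and 3 with all genes in that sum. The median log2 change was 0.31, or 0.036 with libraries set to the same sum, where that of all genes was -0.26. ImpL3, which encodes lactate dehydrogenase, had 35.8, 60.3 and 72.9 FPKM at 50 days, against 9.72, 24.8 and 10.4 FPKM at 3 days, without overlap (limma log2 change 2.01, SE 0.34, adjusted p 0.00280). Shmt, a serine hydroxymethyltransferase, had 110, 97.6 and 72.6 FPKM at 50 days and 26.1, 27.4 and 38.1 FPKM at 3 days (log2 change 1.69, adjusted p 0.000664). Nmdmc, an enzyme of mitochondrial folate metabolism, had 39.6, 17.5 and 23.5 FPKM at 50 days and 8.61, 9.47 and 6.56 FPKM at 3 days (1.63, adjusted p 0.00334). The phosphoserine phosphatase gene aay rose by 0.89 (adjusted p 0.00550), and its ages did not overlap. The list entries Psat and Phgdh were not analysed here.

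The genes that follow lie outside the naming rule and were picked with their values known. The pseudokinase gene trbl rose by 0.81 (limma adjusted p 0.00153), and eIF4EHP, a translational repressor, fell by 0.49 on the log2 scale (adjusted p 0.00470). PPP1R15, the phosphatase subunit that reverses the action of PEK, had 65.4, 77.0 and 79.0 FPKM at 50 days and 92.2, 90.7 and 102 FPKM at 3 days. These did not overlap, with a log2 change of -0.26 just short of the threshold (adjusted p 0.0524). Gcn2, the other kinase acting on eIF2alpha in flies, had a log2 change of 0.068 (adjusted p 0.519). Thor, also of this list, had 408 ± 10.5 FPKM at 50 days and 471 ± 52.9 FPKM at 3 days (SD, n = 3 each). Its ages overlapped and it was not called (limma log2 change -0.093, adjusted p 0.568). The log2 changes in this list thus lay on both sides of 0.

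Among 6 partners of the branches, 2 rose, 0 fell and 4 did not pass, beside 18.3% of all genes called higher. The median was 0.15, or -0.11 with libraries set to the same sum, where that of all genes was -0.26. RtcB, the RNA ligase that joins the cut Xbp1 mRNA in mammals and worms, had 36.4 ± 1.76 FPKM at 50 days and 25.4 ± 2.08 FPKM at 3 days (SD, n = 3 each, limma log2 change 0.61, adjusted p 0.000894). CrebA, a transcription factor of secretory pathway genes in flies, had 9.49 ± 1.14 FPKM at 50 days and 6.88 ± 0.406 FPKM at 3 days (0.50, adjusted p 0.00341). With libraries set to the same sum the call of CrebA was lost (0.25, adjusted p 0.159, while its 14 alternatives gave 0.00317 to 0.159), which left 1 call in this list. S1P and S2P, the proteases that cut Atf6, had changes of 0.047 and 0.023 (adjusted p 0.652 and 0.860).

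At the entry to the ER, the translocon, signal peptidase and glycosylation genes all had estimates above 0 with the trimmed-mean factors, from 0.22 to 0.57. Beside 18.3% of all genes called higher and 20.8% lower, 11 of these 20 were called higher and 0 lower. The median was 0.40, and it was 0.12 with libraries set to the same sum, where that of all genes was -0.26. The count was sensitive to single libraries. Among the 3-day libraries, leaving out replicate 1, 2 or 3 gave 4, 3 or 16 calls. Among the 50-day libraries, leaving out replicate 1 or 2 gave 3 or 4. It was 8 with no filter on low values, 5 with deposited values unscaled, 1 with the 10 most abundant genes left out of the common sum and 0 with all genes in it. Tapdelta, a translocon-associated subunit (0.57, limma adjusted p 0.0340), twr, a signal peptidase subunit (0.55, adjusted p 0.0200), TRAM, a translocation factor (0.53, adjusted p 0.0271), and Spase22-23, another signal peptidase subunit (0.47, adjusted p 0.00399), had the largest changes, and the calls of Tapdelta, TRAM and twr held in 5, 6 and 8 of 14 alternatives. The channel genes Sec61alpha, Sec61beta and Sec61gamma overlapped between the ages; Sec61alpha had 169, 174 and 137 FPKM at 50 days and 112, 136 and 187 FPKM at 3 days.

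At the exit, 4 of 11 genes rose and 0 fell, with a median of 0.21, beside 18.3% of all genes called higher. With libraries set to the same sum 0 rose and 1 fell, with a median of -0.060, beside -0.26 over all genes. Leaving out replicate 1 or 2 of either age gave 2 risers in each case. The cargo lectin gene ergic53 had 51.2 ± 4.86 FPKM at 50 days and 38.04 ± 2.85 FPKM at 3 days (SD, n = 3 each, limma log2 change 0.52, adjusted p 0.00626). The p24 family gene bai changed by 0.46 (adjusted p 0.0103), the coat gene Sec13 by 0.29 (adjusted p 0.0424) and the p24 gene p24-1 by 0.21 (adjusted p 0.0473). The calls of Sec13 and p24-1 each held in only 4 of 14 alternatives, and the change of p24-1 was -0.060 with libraries set to the same sum.

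**Figure D4:**
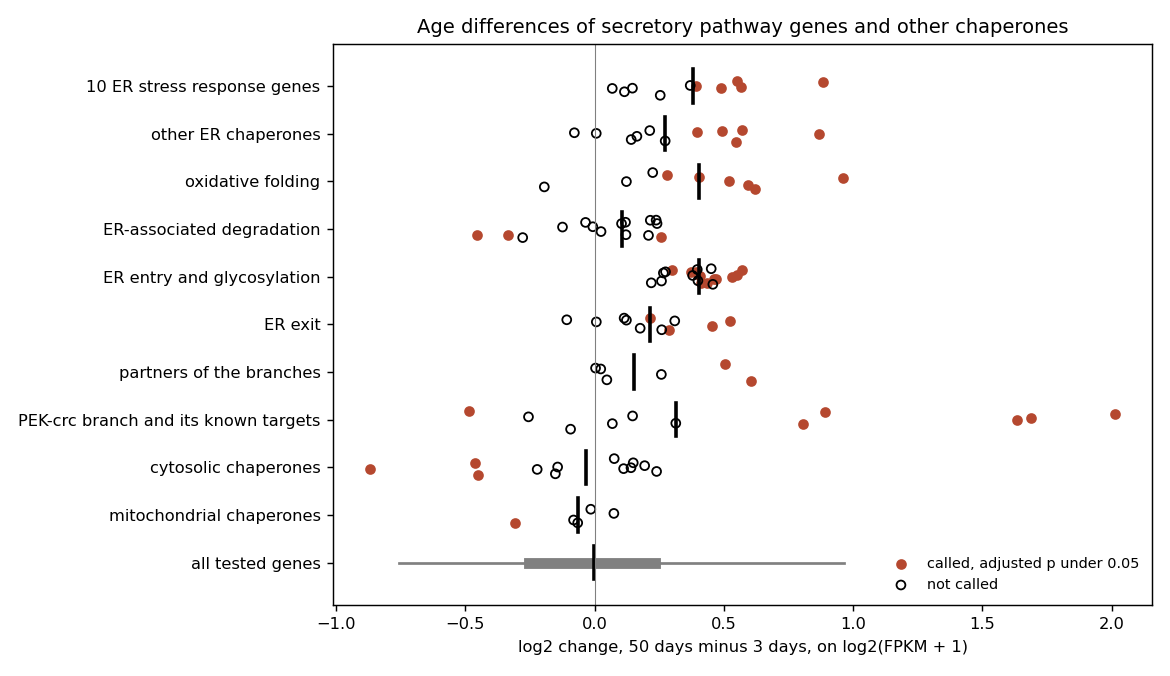
Log2 change, 50 days minus 3 days (horizontal axis), of each tested gene in 10 lists, filled red where the limma adjusted p is under 0.05, with the median of each list as a black bar; for all tested genes the thin line spans the 5th to 95th percentile and the thick line the 25th to 75th. With the trimmed-mean factors the lists of ER folding and entry have medians of 0.27 to 0.40, and the cytosolic and mitochondrial chaperones -0.034 and -0.066.

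Chaperones of other compartments were read in the same way. Of 12 tested cytosolic chaperone genes 0 rose and 3 fell, with a median log2 change of -0.034, and of 5 mitochondrial ones 0 rose and 1 fell, with a median of -0.066. Among all genes tested 20.8% were called lower, near the share in both lists. With libraries set to the same sum 6 cytosolic genes (median -0.29) and 3 mitochondrial genes (median -0.35) were called lower. Over all genes this scaling called 3125 of 8755 lower, with a median of -0.26. With the 10 most abundant genes left out of that sum, 6 cytosolic genes (median -0.21) were called lower. Over all genes it was then 2687 of 8745, with a median of -0.18. The cytosolic median was above 0 without 3-day replicate 2 (0.030), without 50-day replicate 1 (0.023) and with no filter on low values (0.046). Hsp83 had 206, 239 and 264 FPKM at 50 days, against 329, 524 and 580 FPKM at 3 days, without overlap (limma log2 change -0.87, SE 0.20, adjusted p 0.0110). The DnaJ genes DnaJ-1 and Droj2 fell by 0.46 and 0.45 on the log2 scale (adjusted p 0.00952 and 0.00851). Roe1, a mitochondrial cochaperone, fell by 0.31 (adjusted p 0.0144); this call was lost without 3-day replicate 2 (0.0518), without 50-day replicate 2 (0.0606) or 3 (0.0563) and with the replicate number as a block (0.0553), while its alternatives gave 0.00164 to 0.0606. The inducible Hsp70 genes are near-identical copies among which reads may be split, and their single values are not given.

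Over the 6 libraries the transcripts most like Hsc70-3, among 7054 genes averaging 5 FPKM or more, were CG17189, CaBP1, CSN6, CG11668 and Prosbeta1. Pearson's r of log2 values was between 0.988 and 0.992 for these 5. The 6 libraries fall into 2 ages and the genes were picked from many, so high values of r arise readily. Of the 5, CSN6, a signalosome subunit, was not called (limma log2 change 0.11, adjusted p 0.241).

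Heads hold several tissues, and in whole heads a change in the share of a cell type and a change of RNA per cell cannot be told apart. Of 9 fat body markers, all tested, 6 rose and 0 fell, and their summed level was 61105, 50239 and 36113 FPKM in the 50-day libraries, against 13061, 17423 and 28717 FPKM in the 3-day ones, by replicate number. Yp1, Yp2 and Yp3 make up most of this sum. Within each age, the library order of this sum was also that of Pdi. Hsc70-3 and Gp93 shared that order at 3 days but not at 50 days, where replicate 2 was highest for both. With only 3 libraries per age, orders can match readily by chance. The part of fat body content in the changes of the ER genes was not tested.

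Of 8 neuronal markers, 6 fell and 0 rose, with summed levels of 433 to 508 FPKM at 50 days and 623 to 718 FPKM at 3 days. Of 11 photoreceptor markers, 1 rose and 4 fell, with sums of 21136 to 27399 FPKM at 50 days and 25500 to 29814 FPKM at 3 days. Of 5 glial markers 1 rose and 2 fell, with sums of 571 to 628 FPKM at 50 days and 798 to 923 FPKM at 3 days. Of 6 muscle markers, 4 fell, with sums of 161 to 188 FPKM at 50 days and 371 to 586 FPKM at 3 days. Of 6 hemocyte markers, 2 fell, with sums of 50.1 to 73.4 FPKM at 50 days and 83.0 to 134 FPKM at 3 days. The median log2 change of this list was 0.22, of the other sign than its sum. Those that fell were Col4a1 (log2 change -1.58) and vkg (-1.24), while Hml (0.29), NimC1 (0.54), Sr-CI (0.54) and eater (0.14) were not called. Among all genes tested 18.3% were called higher and 20.8% lower. The part of these cell types in the changes was not tested. All 5 ovary germline markers stayed under 1 FPKM in every library, with sums of at most 0.317 FPKM.

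The genomic position of the genes bears on what the counts can hold. In the Ensembl annotation BDGP6.54, Hsc70-3 (FBgn0001218) lies on X:11801696-11807117, Pdi (FBgn0286818) on 3L:15137738-15142840 and crc (FBgn0000370) on 2L:21310866-21319527. On 3R lie Ire1 (FBgn0261984) at 19853908-19861291, Calr (FBgn0005585) at 9628691-9630851 and Cnx99A (FBgn0015622) at 29315254-29319644. Gp93 (FBgn0039562) at 27948711-27952151 and PEK (FBgn0037327) at 5458563-5464753 lie there too. Xbp1 (FBgn0021872) at 21143545-21145750 and Atf6 (FBgn0033010) at 5144733-5154756 lie on 2R. All 10 are protein-coding.

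Of the exon bases of crc, 73.5% are shared on the same strand with CG46314, which was not analysed here. On the opposite strand, 21.5% of the exon bases of Pdi overlap the antisense RNA asRNA:CR45396, 12.3% of those of Ire1 overlap MICU3 and 3.6% of those of Gp93 overlap CG4951. Exons of Atf6 overlap annotated transposable elements. How strand was handled in counting is not given in the sources used here, and the part of these overlaps in the values was not tested.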

How the data were processed

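Per the labels, RNA of female heads was sequenced as polyadenylated transcripts in paired-end reads. The submitters' processing notes name fastp, HISAT2, HTSeq and the build BDGP6, without role or version; annotation, strand handling and filters are not given in the sources used here. The authors deposited 1 table with a value per gene and library. Its values are not whole numbers and are read as FPKM; TPM cannot be told from it here. All 6 columns match a sample by library name, and 0 columns had no sample.

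Each library was scaled by a trimmed-mean factor (genes above 1 FPKM, 30% of ratios and 5% of levels trimmed at each end, against 3-day replicate 1). Factors were 1.11, 1.01 and 1.00 for 50-day and 0.972, 0.948 and 0.968 for 3-day replicates 1 to 3. Then log2(value + 1) of genes with a scaled mean of at least 1 was fitted with limma 3.58.1 in R 4.3.3 (lmFit, eBayes with trend, age only), with Benjamini-Hochberg adjustment over all genes tested. Fold changes on this scale understate the change of low genes. The fit was tested on simulated data with independent noise per gene and no shift of whole libraries, so that test does not bear on the scaling. Ratios and values are deposited FPKM; ratios of means use scaled ones.

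The 10 genes and the 9 other lists were chosen with earlier results of these data known. Of 116 list entries 113 were found in the table as separate genes, some through RefSeq synonyms. Named are all 10 genes and, per list, up to 4 called genes that averaged 5 FPKM or more, taken by size of change, and the 5 genes most like Hsc70-3. Outside this rule, Manf, ninaA, sip3, trbl, eIF4EHP, PPP1R15, Gcn2, S1P, S2P and the Sec61 genes were named after their values were seen. So were Thor and the single hemocyte markers. No sequences were used.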

Additional observations from a re-analysis of the deposited data

How the results depend on the processing

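Alternatives were a pseudocount of 0.1, no filter or a mean of at least 5 FPKM, unscaled values, a common library sum, no variance trend, a replicate block and leaving out each library; the common sum without the 10 most abundant genes was added after seeing the data. The number of all genes called was 3418 and ran from 2702 to 3859, and from 2619 to 3718 with 1 library left out. Of all calls 1604 were higher and 1814 lower, against 1138 and 2271 unscaled, 734 and 3125 with a common sum, and 910 and 2687 with that sum without the most abundant genes. These scalings put the median change of all genes at -0.098, -0.26 and -0.18. The number of the 10 genes called was 5, but 1 with a common sum and 2 with the most abundant genes left out of it, and 4 to 5 with 1 library left out. Signs turned with a common sum for Ire1 (-0.13), PEK (-0.016), Atf6 (-0.16), Cnx99A (-0.22), Ubc7 (-0.026), p24-1 (-0.060) and CSN6 (-0.16). They turned with the most abundant genes left out of it for Ire1 (-0.048), Atf6 (-0.081), Cnx99A (-0.13) and CSN6 (-0.085). Cnx99A also turned unscaled (-0.040) and without 3-day replicate 3 (-0.0010), in a range of -0.0010 to 0.15 with 1 library left out. In each of these cases the gene was not called.

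Same-numbered libraries did not deviate together (correlations of deviations -0.21, -0.10 and -0.24). With 3 libraries per age this cannot settle whether the numbers mark pairs, and the main fit left them unpaired. With the replicate number as a block 2702 genes and 4 of the 10 were called, and 4 of the 20 genes of ER entry. With 3 libraries per age and depth not stated, the 95% intervals of the 5 genes not called reached upper ends between 0.30 for Cnx99A and 0.68 for Gp93, so changes up to that size lie within them.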
